A study of Xenopus laevis with 28 samples.

Results

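The 9 classical and related cadherin genes considered here were cdh1, cdh2, cdh3, cdh4, cdh5, cdh11, cdh15, cdh16 and cdh17, and their transcripts were followed across 14 adult tissues of Xenopus laevis, the African clawed frog. Gene models were taken by symbol, after the ending for the long (L) or short (S) chromosome copy and any tandem number had been removed. This gave 11 models of 6 symbols among the 45831 models of the deposited table: cdh1.L and cdh1.S, cdh3.L and cdh3.S, cdh5.L and cdh5.S, cdh11.L and cdh11.S, cdh15.1 and cdh15.S, and cdh17.L. The symbols cdh2, cdh4 and cdh16 had no model under this rule and are in none of the sums and shares below. All 11 models passed the minimum used for testing, a level of at least 1 TPM (transcripts per 1000000) in at least 2 of the 28 libraries. The genes were chosen by their TPM levels across these tissues, so those levels are described without a test. Tests are kept to the ratio between the L and S copies, to the difference between the datasets and to other genes of the junction. The ratio and the dataset difference come from the same TPM values, so these tests of the members are not free of that choice.

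Polyadenylated RNA came from whole minced tissue of the inbred J strain, for which the labels name no treatment, with 2 libraries per tissue. The Ueno dataset used 1 female frog and the Taira dataset another for 13 tissues: brain, eye, heart, intestine, kidney, liver, lung, muscle, ovary, pancreas, skin, spleen and stomach. For testis each dataset used a male, and the males were siblings of the donor females. The ages of the animals are not given in the sources used here. Each value is therefore 1 animal, and donor, clutch and collection date cannot be told apart within a dataset.

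Cadherins are transmembrane adhesion proteins whose extracellular repeats bind calcium and pair with cadherins of the neighbouring cell. The tails of the classical members bind beta-catenin or plakoglobin and p120 catenin, and alpha-catenin links that complex to actin at the adherens junction. Which cadherin a cell makes goes with its kind: E-cadherin (cdh1) in epithelia, VE-cadherin (cdh5) in endothelium, the maternal C-cadherin (cdh3) in frog eggs and embryos, OB-cadherin (cdh11) in mesenchyme and, in Xenopus, cranial neural crest, M-cadherin (cdh15) in mammalian myoblasts and satellite cells, and LI-cadherin (cdh17), which lacks a catenin-binding tail, in mammalian intestinal epithelium.

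TPM is a share of a library corrected for transcript length, so levels can be set against each other between genes, but a gene's TPM also falls when other genes rise. It keeps no read depth, and no counting error could be given. In bulk tissue, fewer cells of a type and less RNA per cell cannot be told apart. Marker lists for 9 tissues were summed as a check of the labels: 8 were higher in both libraries of their own tissue than in any library of another tissue. The exception was the skin epidermis list, at 3311 TPM in the Ueno and 6248 TPM in the Taira skin, because the Taira eye held 4462 TPM.

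Among the 6 genes with models, the epithelial cadherin cdh1 or the egg cadherin cdh3 held the largest share in most tissues. Summed over the 11 models, the cadherins reached 304 TPM in the Ueno and 920 TPM in the Taira intestine, the highest of any tissue, and 11.6 and 23.4 TPM in the Ueno and Taira muscle, the lowest in the Ueno and in the Taira dataset. Skin followed intestine at 251 and 439 TPM in the Ueno and Taira libraries. In 9 of the 14 tissues the same gene held the largest share in both datasets: cdh1 in eye, intestine, liver, pancreas, skin, stomach and testis, and cdh3 in kidney and ovary. The share was most one-sided in ovary, where cdh3 made up 98.9% of the sum in the Ueno and 99.4% in the Taira library, and in stomach, where cdh1 made up 91.9% and 87.8%. The leading gene differed between the datasets in brain, heart, lung, muscle and spleen. In brain cdh3 led in the Ueno library, at 52.3% of the sum, and cdh11 in the Taira library, at 46.4%. In Taira heart, lung, muscle and spleen the leading gene was cdh5, at 67.3%, 48.2%, 48.9% and 47.2% of the sum. In the Ueno libraries cdh15 led in heart and muscle and cdh1 in lung and spleen. These places hold only among the 11 models, since other cadherins are left out of the sums. In brain 59 models of other cadherin superfamily genes summed to 610 TPM in the Ueno and 1132 TPM in the Taira library. The 11 models summed to 38.6 and 86.1 TPM there. In skin the same 59 models summed to only 48.6 and 79.2 TPM. In kidney cdh16-like.1.L, also outside the sums, stood at 129 and 334 TPM.

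**Figure D1:**
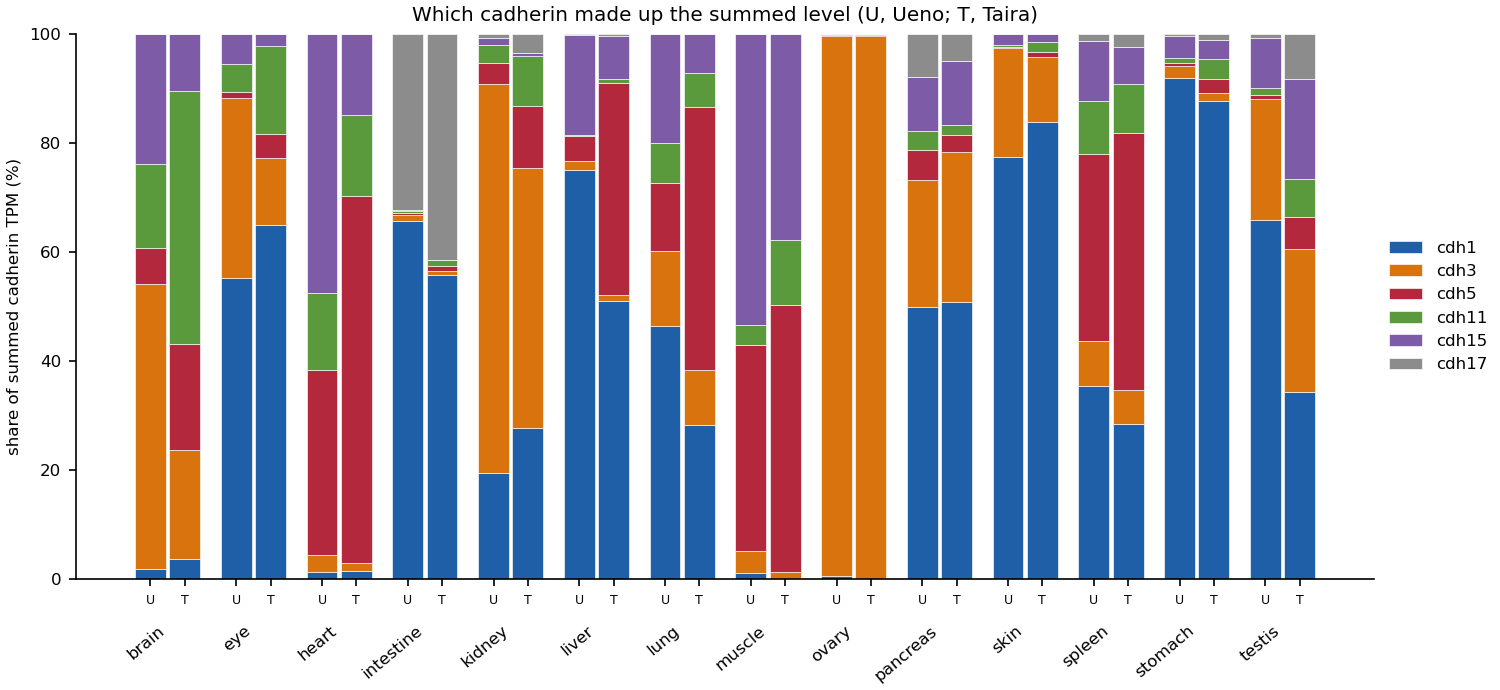
Share of the summed TPM of the 11 cadherin models held by each gene (vertical axis, percent), with the Ueno library (U) left of the Taira library (T) for each of 14 tissues and the L and S copies of a gene added together. The cdh3 share of ovary was 98.9% in the Ueno and 99.4% in the Taira library, and the cdh5 share was larger in the Taira than in the Ueno library of heart, lung, muscle and spleen.

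The S copy of cdh1 was highest in the digestive tract, skin and lung. In intestine cdh1.S (Xelaev18024918m) stood at 199 TPM in the Ueno and 513 TPM in the Taira library (356 ± 222, SD, n = 2). Stomach had 104 and 162 TPM, lung 46.0 and 116 TPM, and liver 16.1 and 24.3 TPM in the Ueno and Taira libraries. Pancreas had 13.3 and 23.0 TPM and kidney 26.3 and 54.4 TPM. Both intestine libraries lay above every library of the other tissues, the next highest of which was the Taira stomach. At the low end cdh1.S stayed at or below 0.84 TPM in every heart, muscle and ovary library. Testis, spleen and brain were also low, at no more than 3.04 TPM in any library. Of the 13 steps between neighbours in the order of tissue means, 9 had libraries that overlapped, so the order below intestine is only a rough one.

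The L copy of cdh1 had another distribution, led by skin. cdh1.L (Xelaev18022637m) stood at 92.2 TPM in the Ueno and 227 TPM in the Taira skin (159 ± 95.1, SD, n = 2), and testis followed at 21.5 and 13.5 TPM. Spleen had 7.84 and 18.4 TPM in the Ueno and Taira libraries. In intestine, where the S copy was highest, cdh1.L was at 0.07 and 0.04 TPM, and in lung at 0 and 0.09 TPM. The eye libraries differed widely, with 1.46 TPM of cdh1.L in the Ueno and 26.4 TPM in the Taira eye. Skin genes were also uneven there: the 10 models of the skin epidermis list, from the 3 of 8 listed symbols that had a row, summed to 1638 TPM in the Ueno and 4462 TPM in the Taira eye, that is 49.5% and 71.4% of the same dataset's skin. In the Ueno eye 1 of these models was listed at 0 and in the Taira eye 2, and the part of these genes in the cdh1.L values was not tested. At 1.58% and 11.6% of the skin level, cdh1.L lay lower in the Ueno and Taira eyes than that list did, while cdh1.S was at 34.3% and 77.0%, below the list in the Ueno and above it in the Taira eye.

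The egg cadherin cdh3 was highest in ovary and kidney. cdh3.L (Xelaev18022638m) stood at 45.6 TPM in the Ueno and 116 TPM in the Taira ovary, and at 24.2 and 30.9 TPM in the kidneys. cdh3.S (Xelaev18024919m) stood at 36.1 and 164 TPM in the ovaries and at 77.5 and 68.6 TPM in the kidneys. The kidney values of the S copy lay between its ovary values, and without the Taira ovary kidney led for cdh3.S, at a mean of 73.0 TPM against 36.1 TPM. Transcripts of oocyte genes were present in the kidney libraries, since the 18 models of the oocyte list summed to 357 TPM in the Ueno and 286 TPM in the Taira kidney, 6.07% and 6.77% of the sums in ovary. The list was at most 52.5 TPM in any tissue other than ovary, kidney and testis, 2 of its models were listed at 0 in each kidney, and bmp15.S was listed at 0 in all libraries. Relative to ovary, cdh3.S was at 214% in the Ueno and 41.8% in the Taira kidney, and cdh3.L at 52.9% and 26.6%, all above the oocyte list. The part of oocyte transcripts in the cdh3 values of kidney was not tested.

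Outside ovary and kidney the cdh3 copies were highest in skin, lung, eye and brain. cdh3.S had 45.5 and 36.7 TPM in the Ueno and Taira skin and 15.9 and 20.4 TPM in the eyes. cdh3.L had 14.6 and 11.4 TPM in the Ueno and Taira brain, 7.85 and 27.0 TPM in the lungs and 4.80 and 15.6 TPM in the skin. Heart, liver and muscle held at most 0.83 TPM of either copy. The genes cdh1 and cdh3 are direct neighbours on both subgenomes, with 0 protein-coding genes between them in the RefSeq annotation of assembly Xenopus_laevis_v10.1, so these different tissue orders belong to adjacent genes.

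The endothelial cadherin cdh5 was highest in lung, but mainly in the Taira dataset. cdh5.L (Xelaev18022588m) stood at 7.68 TPM in the Ueno and 84.5 TPM in the Taira lung, and cdh5.S (Xelaev18024838m) at 4.73 and 113 TPM. The Taira spleen, heart and kidney had 14.9, 18.6 and 10.5 TPM of cdh5.L, while the same Ueno tissues had 3.29, 2.35 and 2.35 TPM. Without the Taira lung the leading tissue was heart for cdh5.L, at a mean of 10.5 TPM, and spleen for cdh5.S, at 12.3 TPM. Ovary, pancreas and skin were low, at no more than 2.24 TPM in any library. Of the endothelium list 14 models of 7 of 14 symbols were measured, and they summed to 287 TPM in the Ueno and 1270 TPM in the Taira lung, against 19.8 to 443 TPM over the other Ueno and 33.2 to 421 TPM over the other Taira libraries of female tissues. None of these models was listed at 0 in a lung library.

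The mesenchymal cadherin cdh11 reached at most 21.7 TPM per copy in any library. cdh11.L (Xelaev18022586m) was highest in brain, at 3.36 TPM in the Ueno and 21.7 TPM in the Taira library, followed by eye at 1.43 and 13.01 TPM. cdh11.S (Xelaev18024836m) was highest in lung, at 5.92 and 20.9 TPM, with eye at 1.88 and 20.4 TPM and brain at 2.62 and 18.2 TPM. These leading places do not hold against the spread: 12 of the 13 steps between neighbouring tissues overlapped for both copies, and leaving out the Ueno eye put eye first for both, at 13.01 TPM for cdh11.L and 20.4 TPM for cdh11.S. Without the Taira brain eye also led for cdh11.L at 7.22 TPM, without the Ueno brain brain led for cdh11.S at 18.2 TPM, and without the Taira lung eye led for cdh11.S at 11.1 TPM. Liver and ovary had at most 0.31 TPM of either copy. In the RefSeq annotation cdh11 and cdh5 lie close together, with 1 protein-coding gene between them among the L copies and 0 among the S copies.

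Transcripts of the muscle cadherin cdh15 were not highest in muscle. cdh15.1 (Xelaev18003579m), a model to which the table gives no copy, stood at 11.7 TPM in the Ueno and 18.2 TPM in the Taira lung, against 2.37 and 3.38 TPM in muscle. Brain had 8.69 and 8.52 TPM of it and skin 4.97 and 6.19 TPM. cdh15.S (Xelaev18024865m) stood at 8.04 and 11.2 TPM in the Ueno and Taira lung, at 4.83 and 4.45 TPM in heart and at 3.79 and 5.48 TPM in muscle, and was below 1 TPM on average in 10 of the 14 tissues. For both models the 2 lung libraries lay above all others. The skeletal muscle and satellite cell list of 19 models, all of its 10 symbols, summed to 4.77 TPM in the Ueno and 7.23 TPM in the Taira lung, with 11 models at 0 in each, against 35529 and 59642 TPM in the muscles. After median-of-ratios scaling the leading tissue was pancreas for cdh15.1 (20.3 scaled TPM against 12 in lung) and muscle for cdh15.S (8.70 against 7.84 in lung), and quantile normalization gave the same leading tissues.

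The intestinal cadherin cdh17 was the most restricted of the genes. cdh17.L (Xelaev18032197m) stood at 97.8 TPM in the Ueno and 381 TPM in the Taira intestine (239 ± 200, SD, n = 2). The highest library of any other tissue was the Taira kidney at 7.35 TPM, and the lower intestine value was 13.3 times that. Of the 28 libraries 9 were listed at 0, among them both libraries of heart, muscle and skin. Stomach, the neighbouring digestive organ, had 0.54 TPM in the Ueno and 2.27 TPM in the Taira library.

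**Figure D2:**
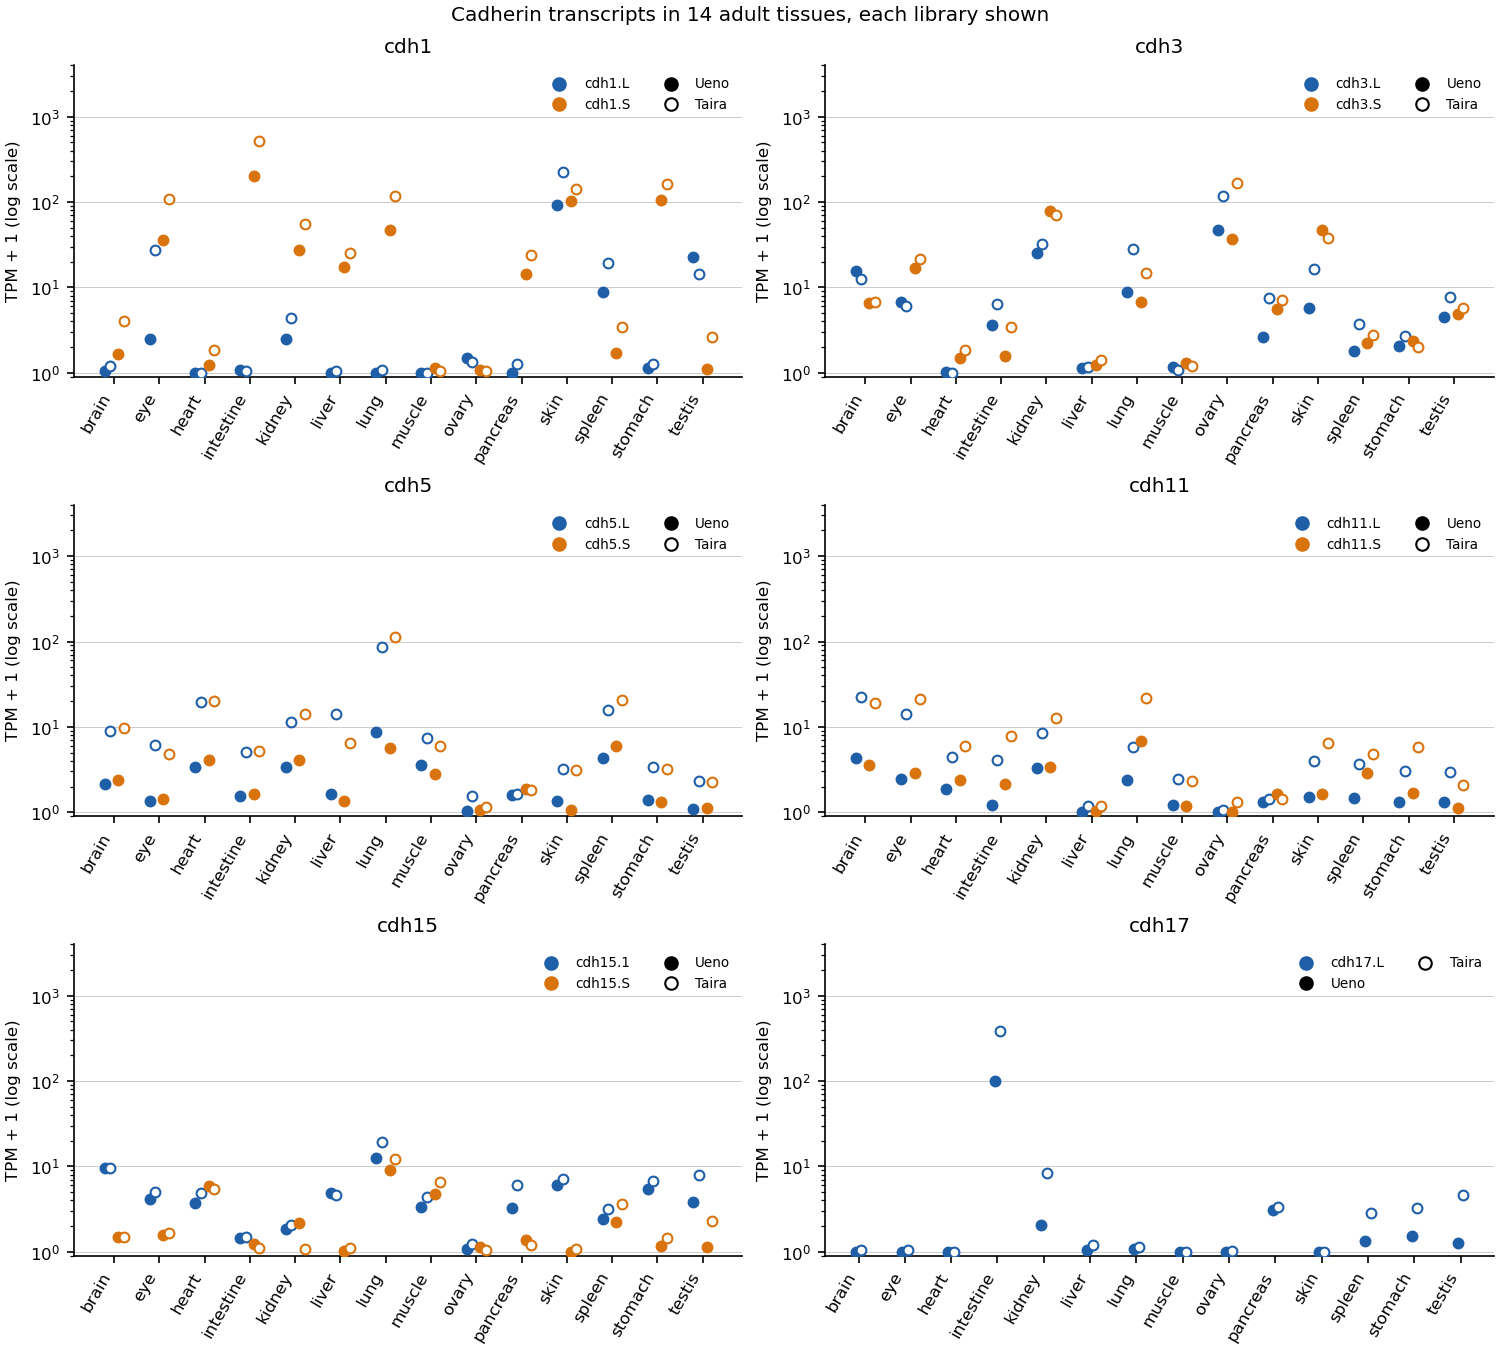
Level of each cadherin model as TPM + 1 on a log axis (vertical) in 14 tissues (horizontal), with filled points for the Ueno and open points for the Taira library, orange for S models and blue for L models and cdh15.1. cdh17.L stands out in intestine at 97.8 TPM in the Ueno and 381 TPM in the Taira library, and cdh1.S is high in intestine, lung and stomach where cdh1.L is near 0.

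For each gene the models with the most similar profile over the 14 tissues were sought by Pearson's r of log2(mean TPM + 1), as a description across tissues that share 2 datasets. The profile of cdh5.S was closest to those of myct1.S (r = 0.978), of tie1.S (r = 0.976), a receptor kinase of endothelium, and of its own homeolog cdh5.L (r = 0.973). For cdh17.L they included lgals2.L (r = 0.962) and the brush border myosin myo1a.S (r = 0.958). The profile of cdh1.S came closest to elf3.S (r = 0.941), an epithelial transcription factor, znf534.L (r = 0.937) and gipc2.L (r = 0.932). For cdh3.S they were cdh3.L (r = 0.904), the tight junction gene ocln.S (r = 0.869) and tmem116.L (r = 0.868). The profile of cdh11.S was closest to sema3f.L (r = 0.941), flrt3.L (r = 0.938) and fbxl7.S (r = 0.930). For cdh15.1 the first was slc22a31-like.1 (r = 0.892), far ahead of wnt7b.L (r = 0.739) and adamts2.L (r = 0.732). In the RefSeq annotation slc22a31.L is the direct neighbour of cdh15.L, with 0 protein-coding genes between them. Neither cdh15.1 nor slc22a31-like.1 is assigned to a copy, so whether they are these neighbours is not known here.

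The next question was whether the L and S copies of a cadherin were used alike. The log2 ratio of L over S, with 1 TPM added to each, was fitted with limma over all 7749 homeolog pairs tested, and 4 cadherins formed such pairs. Copies were separated by the authors' estimate, so reads that both copies could give are an uncertainty of every ratio. Averaged over tissues, cdh1 was called as higher from S, with a log2 ratio of -2.25 (SE 0.12, limma adjusted p = 5.1e-12). That was 1 of the 4 cadherin pairs, a call made for 8.19% of all pairs. No cadherin pair was called toward L, against 15.6% of all pairs. At an unadjusted limma p under 0.05, 0 leaned to L and 3 to S, without a share of all pairs taken. With only 4 pairs these counts say little about cadherins as such. cdh11 and cdh3 leaned to S by less than the minimum of 1, with ratios of -0.37 (SE 0.05, limma adjusted p = 4e-06) and -0.26 (SE 0.09, limma adjusted p = 0.0183). cdh5 had a ratio of 0.03 (SE 0.06, limma adjusted p = 0.597).

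The copy in use changed with the tissue most in cdh1. Its L share of L plus S was 0.0351% in the Ueno and 0.0078% in the Taira intestine, 0.143% and 0.167% in stomach, and 0% and 0.0774% in lung. It was 47.5% and 61.7% in skin, 91.7% and 88.2% in spleen, and 99.5% and 89.5% in testis. So the S copy made up nearly all cdh1 of the gut and lung, the copies were close to equal in skin, and the L copy prevailed in spleen and testis. Among the tissues with a sum of at least 1 TPM in both libraries, L was above S in both libraries of 2 tissues and S above L in both libraries of 7. The tissue means of the log2 ratio ran from -8.25 in intestine to 3.42 in testis, a span of 11.7, where the median pair of the table spanned 2.46 and 99.8% of pairs spanned less than cdh1. The F test for differences between tissues gave limma adjusted p = 6.4e-10 for cdh1. The span and this p come from the TPM levels by which the genes were chosen.

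The neighbour cdh3 changed its copy use less and in other tissues. Its L share was 72.2% in the Ueno and 66.2% in the Taira brain, 81.9% and 69.0% in intestine, and 58.1% and 66.5% in lung. It was 26.7% and 19.8% in eye, 23.8% and 31.1% in kidney, and 9.54% and 29.9% in skin. Thus L led in intestine and lung for cdh3, where S led for cdh1, and the 2 ovaries disagreed, at 55.8% in the Ueno and 41.4% in the Taira library. The tissue means spanned 3.14 on the log2 scale (limma adjusted p = 0.000318 by the F test).

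cdh11 was furthest from equal use in lung. Its L share there was 18.8% in the Ueno and 18.8% in the Taira library, against 56.2% and 54.3% in brain. The span over tissues was 2.09 (limma adjusted p = 0.000309 by the F test). The copies of cdh5 stayed close together, with L shares from 39.8% to 70.3% over the 21 libraries with a sum of at least 1 TPM, a span of 1.13 and limma adjusted p = 0.123 by the F test. This p fell under 0.05 after median-of-ratios scaling (0.0332) and without the Ueno liver (0.0486), the Taira lung (0.024) or the Ueno lung (0.0293). Thus 3 of the 4 cadherin pairs differed between tissues by this test, and so did 80.2% of all pairs, so the count says little about cadherins as such.

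**Figure D3:**
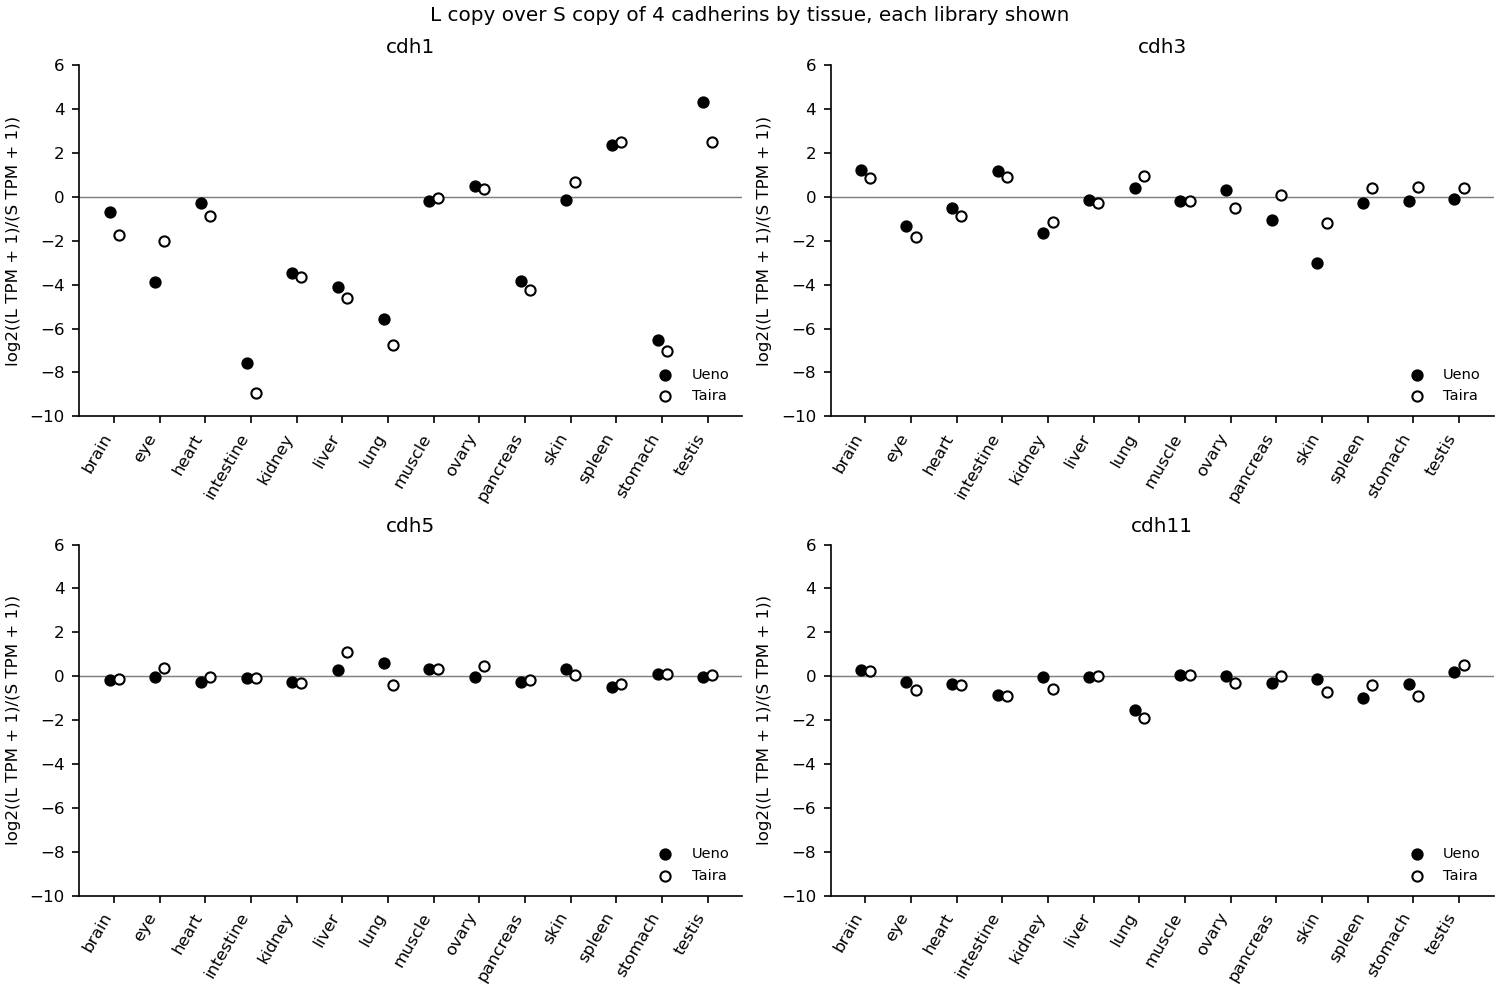
Log2 ratio of the L copy over the S copy, with 1 TPM added to each (vertical axis), for cdh1, cdh3, cdh5 and cdh11 in 14 tissues, with filled points for the Ueno and open points for the Taira library and a line at equal levels. The points of cdh1 run from below -7 in intestine to above 2 in spleen and testis, and those of cdh5 stay between -0.48 and 1.11.

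The datasets were then compared over the 26 libraries of the 13 female tissues, as Ueno minus Taira on the log2(TPM + 1) scale with tissue as a block. These tissues came from 1 female frog in each dataset. The SE and p therefore measure how even a difference was over tissues, not how it varies between animals. Of the 11 cadherin models, 0 were called higher in Ueno, against 0.648% of all 33317 models tested. At an unadjusted limma p under 0.05 also 0 were higher, without a share of all models taken. Called lower in Ueno were 4, a call made for 9.93% of all models. The 4 were the copies of cdh5 and cdh11. cdh5.L averaged 1.71 TPM over the Ueno and 13.1 TPM over the Taira tissues and was lower in Ueno in 13 of 13 tissues (log2 difference -1.75, SE 0.24, limma adjusted p = 0.000161). cdh5.S averaged 1.67 and 15.2 TPM and was lower in 12 of 13 tissues (-1.69, SE 0.28, limma adjusted p = 0.000389). The exception was pancreas, where cdh5.S had 0.89 TPM in the Ueno and 0.81 TPM in the Taira library.

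The copies of cdh11 were lower by similar amounts. cdh11.L averaged 0.872 TPM over the Ueno and 4.87 TPM over the Taira tissues and was lower in 13 of 13 (-1.23, SE 0.20, limma adjusted p = 0.000376). cdh11.S averaged 1.49 and 7.64 TPM and was lower in 12 of 13 (-1.38, SE 0.23, limma adjusted p = 0.000499). The testis libraries, from other animals and outside this fit, also had lower values in Ueno, at 0.1 against 1.33 TPM for cdh5.L and 0.3 against 1.96 TPM for cdh11.L. With a pseudocount of 5 in place of 1 none of the 4 reached the minimum difference of 1 (-0.99 and -0.97 for cdh5.L and cdh5.S, -0.58 and -0.76 for cdh11.L and cdh11.S, limma adjusted p between 0.00213 and 0.00649), and with quantile normalization cdh11.L missed it too (-0.96).

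The other 7 models were not called. cdh1.S had 41.9 TPM on average over the Ueno and 88.3 TPM over the Taira tissues (-0.80, SE 0.15, limma adjusted p = 0.00078), below the minimum difference, and a difference of -0.48 after median-of-ratios scaling. cdh17.L and cdh3.L had differences of -0.52 and -0.61 (limma adjusted p = 0.0472 and 0.02), but -0.39 and -0.29 after median-of-ratios scaling (limma adjusted p = 0.053 and 0.273), and cdh15.S had -0.05 (SE 0.12, limma adjusted p = 0.774). All 11 differences were negative, with a median of -0.61, and the median of all models was -0.22. After median-of-ratios scaling 10 of the 11 were negative, with a median of -0.48, against -0.02 for all models, and after quantile normalization 9 were, with a median of -0.50, against 0.01. The differences of cdh15.S under both scalings and of cdh15.1 under quantile normalization were then positive.

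Some genes of the same cell types and of the junction were also called lower in Ueno, a call made for 9.93% of all models. Of the endothelium list 4 of 14 models were called lower, and the list's median was -0.61, against -0.22 for all models. The 4 were the copies of the angiopoietin receptor tek (tek.L -1.20, tek.S -1.49) and the models plvap.1 (-1.96) and plvap.L (-1.63) of a protein of endothelial diaphragms. The claudin copies cldn5.L and cldn5.S had differences of 0.21 and 0.51 that did not pass, and the summed list was lower in Ueno in 7 of the 13 tissues. Of the fibroblast and matrix list 3 of 9 models were called lower, the copies of lumican (lum.L -1.66, lum.S -2.37) and periostin postn.L (-1.71). The collagen copies col1a2.L and col1a2.S had -0.15 and -0.41 and did not pass. The median of the fibroblast and matrix list was -0.93, and its sum was lower in Ueno in 10 of the 13 tissues. The part of cell makeup in the cdh5 and cdh11 differences was not tested. Among adherens junction partners 8 of 21 models were called lower, with a median of -0.91. They were both copies of alpha-catenin ctnna1 (ctnna1.L -1.45, ctnna1.S -1.69), of the cadherin-cleaving protease adam10 and of the scaffold tjp1, with vcl.1 of vinculin and lima1.S. Among desmosome genes 5 of 10 were called lower, led by desmoplakin (dsp.L -2.18, dsp.S -2.07). Of the other cadherin superfamily 5 of 56 models were called lower, with a median of -0.31, and of the regulators of cadherin genes 0 of 20, with a median of -0.23.

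**Figure D4:**
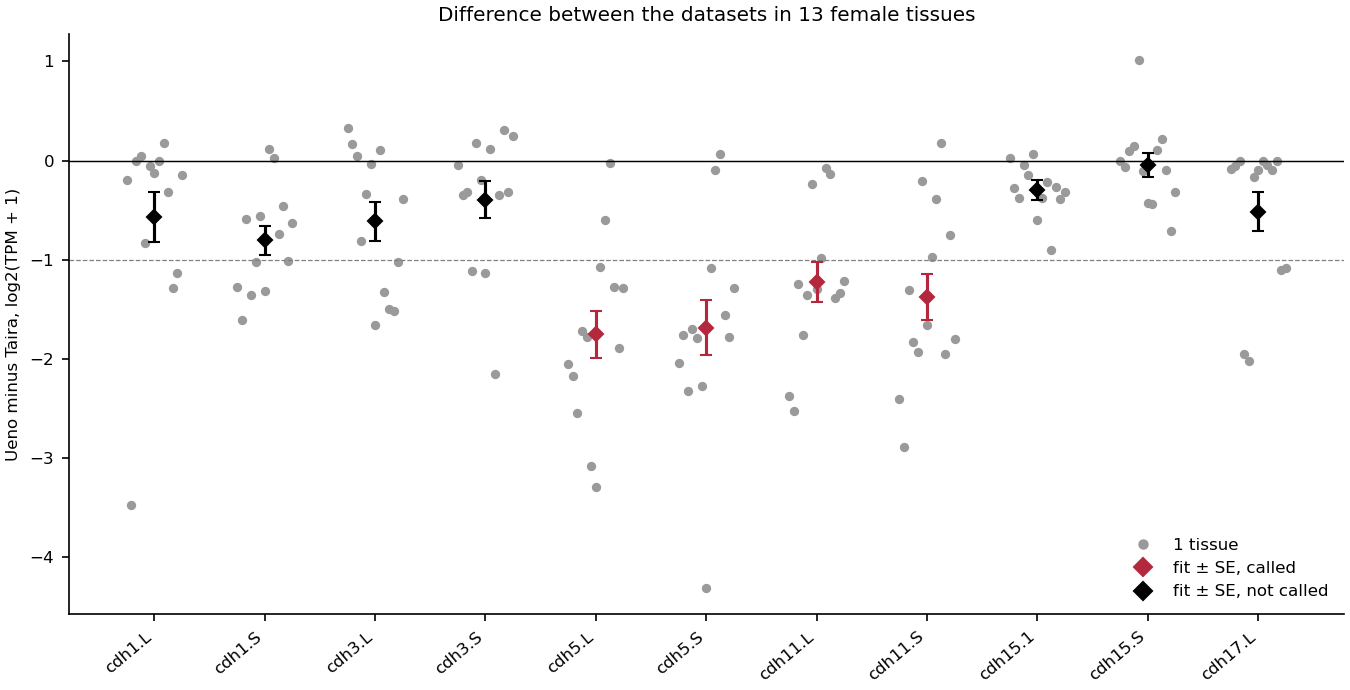
Ueno minus Taira difference on the log2(TPM + 1) scale (vertical axis) for the 11 cadherin models. Grey points are the 13 female tissues, diamonds are the fitted difference with its SE, red where called, and the dashed line marks the minimum difference of 1; cdh5.L, cdh5.S, cdh11.L and cdh11.S lie between -1.75 and -1.23.

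Genes that work with cadherins were followed in 4 lists that hold none of the 11 models, each tissue being compared with the mean of the other 13 by limma over all 33317 models. The lists held 111 symbols, of which 59 had rows, giving 107 models tested. Over the 14 tissue contrasts 211 calls were higher and 185 lower, 14.1% and 12.3% of all list tests, against 12.5% and 12.3% for all models.

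Relatives of the members within the cadherin superfamily were called higher most often in brain, and next in eye. Of 56 models tested, 40 rose in brain and 0 fell (median log2 difference 2.34, against 0.72 for all models, of which 35.5% were called higher and 3.89% lower). In eye 23 rose and 1 fell (median 0.89, against 0.22, with 17.7% called higher and 1.85% lower, for all models). The cadherin cdh22.L stood at 40.8 TPM in the Ueno and 40.7 TPM in the Taira brain, against a mean of 1.46 TPM elsewhere (4.70, SE 0.15, limma adjusted p = 2e-14). In eye the protocadherin pcdh8.2.L had 11.4 and 22.7 TPM (3.93), and pcdh15.S, a tip-link protein of hair cells that photoreceptors also use, had 3.12 and 16.3 TPM (2.93, and 1.90 without the Taira eye). Elsewhere pcdh18.S rose in lung (14.3 TPM in the Ueno and 19.2 TPM in the Taira library, 2.34), where 8.4% of all models did, and T-cadherin cdh13.S in muscle (4.39 and 15.6 TPM, 2.97), where 5.58% did. The calsyntenin clstn3.S was called lower in pancreas (-2.40), as were 52.6% of all models, but the difference was -0.35 after median-of-ratios scaling (limma adjusted p = 0.699) and -0.36 after quantile normalization (limma adjusted p = 0.669). In liver, where 19.6% of all models were called lower, clstn3.S was at -2.27, and at -1.53 without the Ueno library (limma adjusted p = 0.353). The atypical cadherin fat1.S was called lower in muscle (-2.35), as were 24.6% of all models, and its call was lost without the Ueno muscle. After median-of-ratios scaling 34 of the list rose and 1 fell in brain, with a median of 1.51, against -0.09 for all models. In eye 21 rose and 3 fell under that scaling, with a median of 0.61, against -0.09. After quantile normalization 31 rose and 4 fell in brain, with a median of 1.17, against -0.26 for all models. In eye 13 rose and 3 fell, with a median of 0.33, against -0.24. The share of all models called was not taken under either scaling.

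Desmosomal genes followed skin. All 10 models tested rose there, with a median of 5.30, against -0.17 and 7.88% called higher for all models, and they rose under both other scalings as well. The desmoglein dsg4.S stood at 342 TPM in the Ueno and 434 TPM in the Taira skin, against 4.28 TPM elsewhere, and dsg4.L at 186 and 534 TPM (log2 difference 7.84, SE 0.46, limma adjusted p = 6e-10). In eye 5 of 10 rose, against 17.7% of all models. The skin markers of eye are given above, and the gene ppl belongs to both that list and this one. In spleen 4 of 10 fell, against 6.95% of all models. With the dataset as a block 10 fell, but the share of all models was not taken in that fit. The plakophilin pkp3.L had 0.05 and 0.66 TPM in spleen and fell by 3.61. In muscle, where 24.6% of all models were called lower, pkp3.L fell by 3.75. In pancreas 4 of 10 desmosomal models were called lower, against 52.6% of all models. The count was 10 with the dataset as a block and 0 after median-of-ratios scaling, without a share of all models for either.

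Adherens junction partners, measured for 12 of 33 listed symbols, fell most often in muscle and pancreas, in pancreas about as often as all models. In muscle 9 of 21 fell and 0 rose, with a median of -1.62, against -0.66 and 24.6% called lower for all models. After median-of-ratios scaling 8 fell and 2 rose there, with a median of -0.82, against -0.28 for all models. After quantile normalization 7 fell and 1 rose, with a median of -0.80, against -0.19. lima1.L, an actin-binding partner of the cadherin-catenin complex, had 2.45 TPM in the Ueno and 2.06 TPM in the Taira muscle against 46.7 TPM elsewhere (-3.20, SE 0.38, limma adjusted p = 5.6e-06). In pancreas 11 of 21 fell, but so did 52.6% of all models. With the dataset as a block 19 fell, a setting for which the share of all models was not taken. After median-of-ratios scaling 1 rose and 0 fell in pancreas. Plakoglobin, a partner of both junction types, was highest in skin, with jup.S at 153 TPM in the Ueno and 469 TPM in the Taira library (3.03, limma adjusted p = 2.4e-06), and had its lowest mean in pancreas, at 4.06 and 4.02 TPM for jup.S, close to muscle at 5.90 and 3.45 TPM. Its fall there (-3.15) did not pass after median-of-ratios scaling (-0.80, limma adjusted p = 0.291) or after quantile normalization (-0.60, limma adjusted p = 0.303).

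The alpha-catenins, which join the complex to actin, divided by tissue. The neural form ctnna2.L had 26.5 TPM in the Ueno and 28.1 TPM in the Taira brain, 7.38 and 5.17 TPM in the eyes, and was listed at 0 in both libraries of 10 tissues (4.56 in brain, SE 0.11, limma adjusted p = 7.4e-16). The general form ctnna1 was called higher or lower in no tissue in the fit without the dataset as a block. Both copies were called lower in pancreas once the dataset was a block, without a share of all models for that fit. The lack of calls in the fit without the block therefore does not show even levels of ctnna1 across tissues. The mean of ctnna1.S was highest in skin, at 87.9 TPM in the Ueno and 81.4 TPM in the Taira library (2.15, limma adjusted p = 0.164), though the Taira intestine, ovary, heart and lung lay above the Taira skin. It varied between the datasets, as in ovary, with 2 TPM in the Ueno and 88.6 TPM in the Taira library.

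Regulators of cadherin genes or of epithelial identity, mostly transcription factors, rose most often in intestine, in 12 of 20 models with 3 lower (median 1.42, against -0.13, with 10.7% called higher and 5.31% lower, for all models). The caudal factor cdx1.S stood at 66.2 TPM in the Ueno and 195 TPM in the Taira intestine (6.82), and cdx2.L, of a family known in mammals to activate the cdh17 gene, at 87.4 and 85.5 TPM (6.33). In muscle 8 of 20 fell, against 24.6% of all models: the epithelial splicing factor esrp1.L was at 0.05 and 0 TPM there and at 0.02 and 0.05 TPM in heart, where it also fell (-2.73) and 6.4% of all models did. The blood and endothelial factor tal1.S had 0.07 TPM in the Ueno and 0.21 TPM in the Taira ovary and fell by 2.62 there, where 19.4% of all models were called lower.

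**Figure D5:**
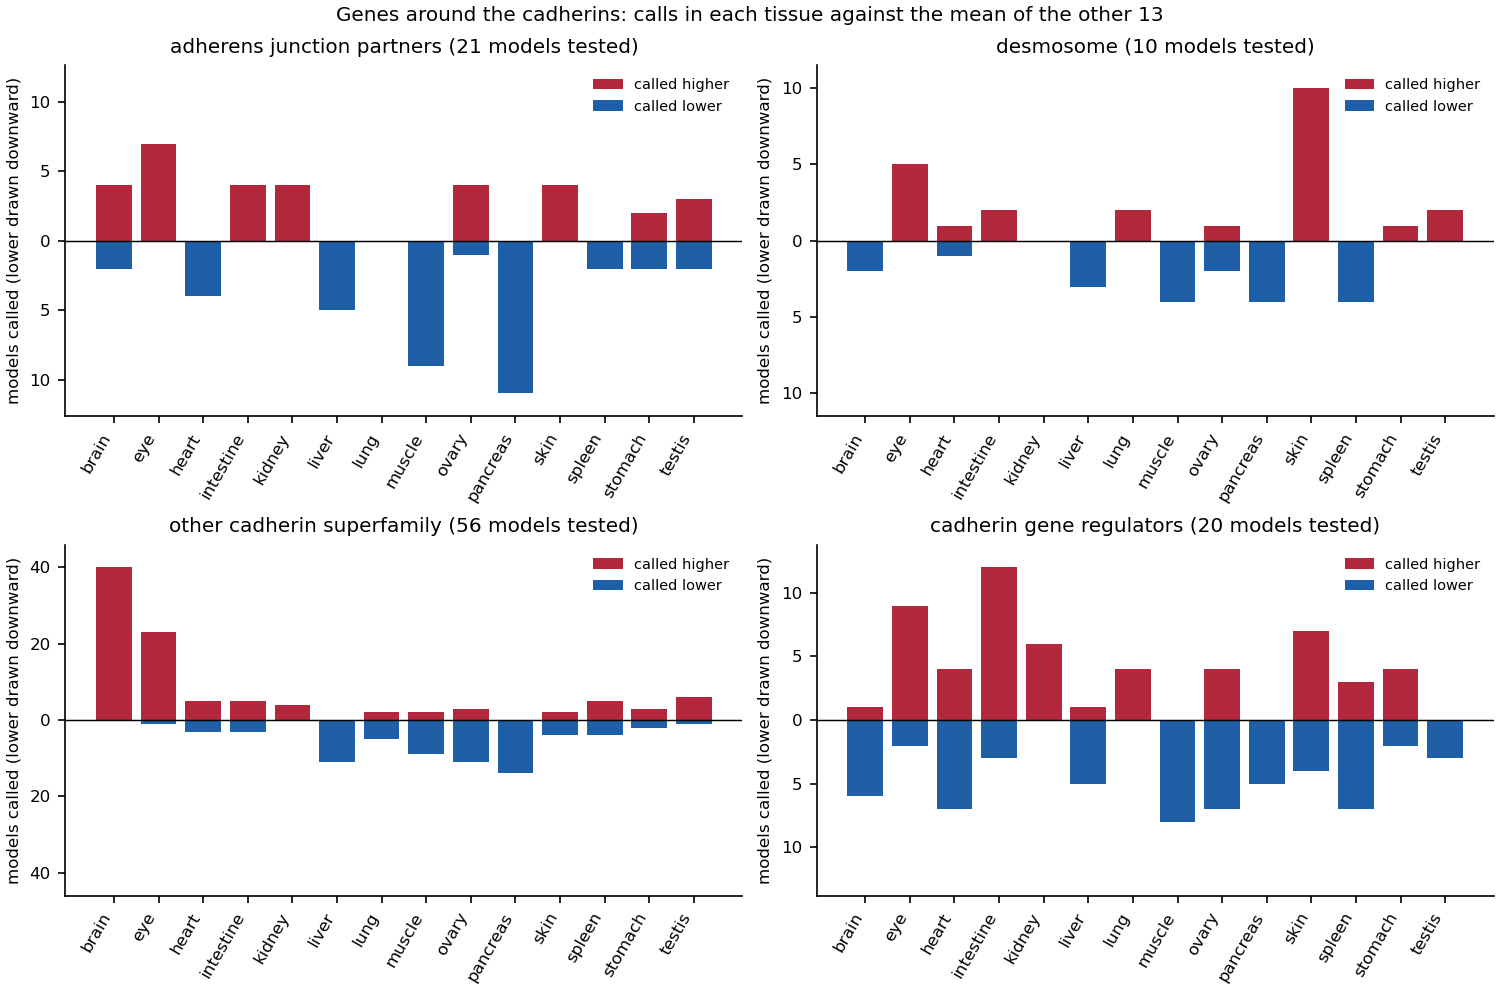
Number of models called higher (red, upward) or lower (blue, downward) in each of 14 tissues against the mean of the other 13, for 4 lists of genes around the cadherins. All 10 desmosomal models rose in skin and 40 of 56 other cadherin superfamily models rose in brain.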

How the data were processed

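Per the labels' protocols, poly-A RNA of whole tissue was sequenced on an Illumina HiSeq, and strand was not kept. BWA 0.7.10 and RSEM 1.2.19 are listed in the submitters' processing notes. A file name in the labels points to cDNA models as the reference. TPM values for every library were deposited in 1 table, each library summing to between 999999 and 1000001. All columns were mapped to samples by name, Taira being replicate 1 and Ueno replicate 2. TPM keeps no depth, so no count model or counting interval was used.

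TPM was transformed as log2(TPM + 1). Models with at least 1 TPM in at least 2 libraries (33317) were fitted with limma 3.58.1 in R 4.3.3, 1 mean per tissue, 14 residual degrees of freedom and a variance trend. Homeolog pairs (8017, of which 7749 were tested) were fitted as log2 ratios without a trend, and the datasets with tissue as a block. Calls needed a Benjamini-Hochberg adjusted p under 0.05 over all models or pairs and a difference of at least 1, except the F test. P-values of the tissue and ratio fits rest on 2 animals per tissue, and tissues of 1 frog are not independent. The comparison of the datasets sets 1 female frog against another. Same-numbered samples of 13 tissues came from the same female, as the series design states, and so are paired by number. Ueno minus Taira differences of 2 tissues correlated across models (78 tissue pairs, median r 0.425). The fits were also run on simulated data. Apart from planted changes these had no tissue differences, and their noise was independent between libraries. That run therefore does not vouch for the p-values given here. Python 3.11.15 with pandas 2.3.3 and matplotlib 3.10.9 summarised and plotted the values.

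The members, lists and tests were chosen with earlier results of these data known. Every member is named. Similar models were the 3 with the highest r among models with a symbol that is no placeholder and a mean of at least 5 TPM in some tissue. Junction genes named were up to 2 per tissue among those called higher with both libraries above all others, up to 3 per list among those called lower, the catenins, and, chosen after their values were seen, models called lower in Ueno. Some models that these rules name are not reported here. RefSeq gene order was used only for which genes neighbour each other. Marker lists covered 9 tissues and epithelium, endothelium, and fibroblast and matrix. The epithelium list summed highest in intestine, at 2498 TPM in the Ueno and 4118 TPM in the Taira library. Ovary came next at 2497 and 2851 TPM, although cdh1.S was at 0.07 and 0.05 TPM there. Other settings tried were a pseudocount of 0.1 or of 5, a minimum of 5 TPM or none, median-of-ratios scaling and quantile normalization. Also tried were no variance trend, the dataset as a block, testis added to the comparison of the datasets, and each library left out in turn. The block set Ueno against Taira over all 28 libraries, testis included.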

Additional observations from a re-analysis of the deposited data

Results flagged for a closer look

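In 3 cadherin pairs the ratio between the L and S copies differed between tissues by the limma F test. The adjusted p was 6.4e-10 for cdh1, whose S copy was at 199 TPM in the Ueno and 513 TPM in the Taira intestine with the L copy under 0.1 TPM, while the L copy led in spleen and testis. The adjusted p was 0.000309 for cdh11, whose S copy led most in lung, and 0.000318 for cdh3, whose S copy led in skin, eye and kidney. Such a difference was found for 80.2% of all 7749 pairs. These p-values come from the TPM levels by which the genes were chosen. Groups of 2 libraries are too small to look for single deviating samples.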

How the results depend on the processing

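The count of cadherin models called lower in Ueno, 4, was 0 with a pseudocount of 5 and 4 when any 1 library was left out. The junction lists' calls over 14 tissues, 211 higher and 185 lower, became 134 higher and 51 lower with a pseudocount of 5, and 327 were lower with a pseudocount of 0.1. Leaving out 1 library gave 201 to 221 higher and 167 to 217 lower. With the dataset as a block (replicate block) the calls were 243 higher and 262 lower. In that fit 1 cadherin pair was called toward S, 0 toward L and 3 differed between tissues. Beside the counts given with the results this pairing changed no call of a cadherin and kept the named calls of junction genes. It added a call for ctnna1, both copies of which were called lower in pancreas with the block and not without it. In the desmosomal list 20 lower calls became 53 with the block. The share of all models called was taken only in the main fit, not with the block or under another scaling. Leaving out 1 library kept 8 to 11 of the 11 leading tissues, and both other scalings kept 9. The fall of clstn3.S in pancreas was -0.35 after median-of-ratios scaling and -0.36 after quantile normalization, and its call was also lost without either pancreas library (adjusted p = 0.0893 and 0.0915). In liver its call was lost with a pseudocount of 5 (adjusted p = 0.0638) and without either liver library, and that of fat1.S in muscle without the Ueno muscle (adjusted p = 0.0699). The ratio fits had no trend to remove. The lone library left in a tissue was assumed to vary like the other tissues. No cause of these changes was tested. Read depth is unknown, so the error of values near 0 TPM cannot be given.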

Other observations

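The model cdh16-like.1.L (Xelaev18022711m) did not meet the symbol rule for cdh16, whose mammalian form is the kidney-specific cadherin. It stood at 129 TPM in the Ueno and 334 TPM in the Taira kidney (232 ± 145, SD, n = 2), and the highest library of any other tissue, the Taira heart, had 6.02 TPM. The lower kidney value was 21.5 times that. This model was chosen after its values were seen, so they are a description.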
